A study of Mus musculus with 8 samples.

Results

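The genes examined here build microRNAs or carry out their silencing. They were taken by symbol from the deposited table: the 4 Argonaute genes Ago1, Ago2, Ago3 and Ago4, the nuclear processing genes Drosha and Dgcr8, the export receptor gene Xpo5, the silencing adaptor gene Tnrc6a, and Lin28a, which encodes an inhibitor of let-7 maturation. These 9 genes were found among the 22013 genes of the table, and all 9 passed the filter on low counts that left 12366 genes for testing. Dicer1, the tenth gene of the set, is not analysed here.

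The libraries, 8 in all, hold poly(A) RNA of blastocysts from wild-type ICR mice, obtained by in vitro fertilisation, with 5 embryos pooled per library. For 4 of them the culture medium, KSOM under 5% O2 for all embryos, held a miR-21-5p agomir at 50 nM, a chemically modified double-stranded mimic of the microRNA, for about 75 h from fertilisation to the blastocyst stage. The other 4 libraries, called blank controls, came from embryos in the same medium with vehicle and no oligonucleotide, so the comparison holds the effect of any oligonucleotide together with that of miR-21-5p. All libraries carry the same batch label, and separate parents or sessions are not stated, so a p-value speaks to the scatter among these 8 pools and not more. Library totals ran from 12246102 counts in control 1 to 23147449 in agomir 4. Control 2 and agomir 3 stood apart from the rest on the first 2 principal components, and values without them are given where they matter. A pool mixes trophectoderm, inner cell mass and primitive endoderm, and in such bulk samples fewer cells of a type and less RNA per cell cannot be told apart.

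In animals, a primary microRNA transcript is cut in the nucleus by the Microprocessor, made of the ribonuclease Drosha and its RNA-binding partner Dgcr8. Exportin 5, the product of Xpo5, carries the hairpin to the cytoplasm, where Dicer cuts it to a duplex, and an Argonaute protein keeps one strand as its guide. Tnrc6 proteins bind Argonaute and recruit the enzymes that shorten the tails of target messages. A duplex mimic is already diced, so it enters this pathway at Argonaute loading. MicroRNA silencing is known to be weak in mouse oocytes and early embryos, while Ago2 is needed for development after implantation.

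The sequence behind the comparison is that of the guide strand. The labels do not print the oligonucleotide, so the mature mouse miR-21a-5p of RefSeq (GRCm38.p6, chr11:86584120-86584141, minus strand) is shown, with its seed, bases 2 to 8, in capitals. It is followed by let-7a-5p (chr13:48538239-48538260, minus strand), whose maturation Lin28a blocks, with its seed marked likewise. Below them stand stretches of the members' 3′ untranslated regions that pair with 1 of these seeds, with the pairing bases in capitals. The 3 let-7 matches of Ago2 are not printed.
miR-21a-5p: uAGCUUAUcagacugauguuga
let-7a-5p: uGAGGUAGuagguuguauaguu
Ago2, miR-21 seed match: ttgccaaacctATAAGCTgctcactgaga
Lin28a, let-7 seed match 1: agcctgttgaaCTACCTCatttttgccga
Lin28a, let-7 seed match 2: tcgccacaaacCTACCTCactgtgttgaa
Ago3, let-7 seed match: cctgccctcacCTACCTCaccaagtcccc

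The letters searched were ATAAGCT for miR-21-5p and CTACCTC for let-7, on the transcript strand alone. Of the 9 genes, Ago2 was the 1 whose longest annotated 3′ untranslated region (GENCODE M21) held the miR-21 letters, with a single match that began at base 233 of 11064. Among 12223 tested genes with a region to search, 7.86% held such a match. The Ago2 region is long, and of 128 genes whose region was within 1.5-fold of its length, 40.6% held one. The let-7 letters occurred 2 times in Lin28a (a region of 2775 bases), 3 times in Ago2 and 1 time in Ago3, against 10.4% of all searched genes with at least 1 match. Among genes whose region was within 1.5-fold of the member's length that share was 16.1% for Lin28a, 49.2% for Ago2 and 53.3% for Ago3. A match describes letters in an annotated region and was not tested as a binding site.

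The level of each gene per length was read first, as FPKM, the deposited count per length and per library total. Xpo5 was the highest of the 9 genes, at 7.76 ± 1.49 FPKM (SD, n = 8), and the only one above the median of all tested genes, 5.18 FPKM. A middle group of 5 genes followed. Dgcr8 had 4.06 ± 1.37 FPKM, Lin28a 4.02 ± 1.89 FPKM, Ago2 3.60 ± 0.810 FPKM, Drosha 3.50 ± 0.960 FPKM and Tnrc6a 2.71 ± 0.737 FPKM (SD, n = 8 each). The other 3 Argonautes were the lowest, with 1.08 ± 0.357 FPKM for Ago4, 0.843 ± 0.301 FPKM for Ago3 and 0.788 ± 0.224 FPKM for Ago1 (SD, n = 8 each).

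**Figure D1:**
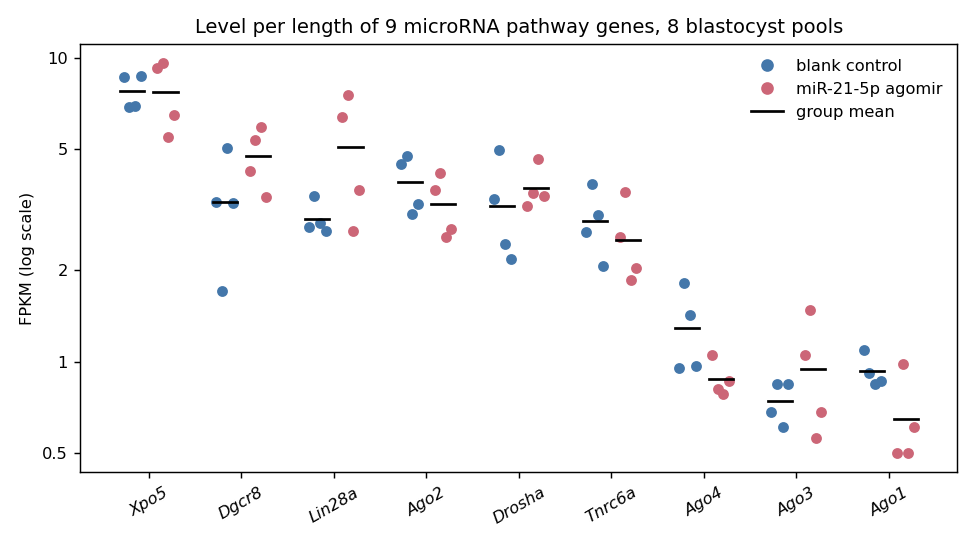
FPKM on a log axis for 9 microRNA pathway genes in order of mean level, with 1 point for each pool of blastocysts, blank controls in blue and agomir pools in red, and a black line at each group's mean (n = 4). Xpo5 stands highest with a mean of 7.76 FPKM over all pools, and Ago4, Ago3 and Ago1 form a low group near 1 FPKM.

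Within a library, Xpo5 exceeded Dgcr8 in 7 of 8 pools, by 1.00 ± 0.64 on the log2 scale (mean ± SD, n = 8). The clearest step in the order lay between Tnrc6a and Ago4, with Tnrc6a above in 8 of 8 pools by 1.34 ± 0.36 on the log2 scale. Neighbours inside the middle group did not differ beyond their spread: Dgcr8 exceeded Lin28a in 4 of 8 pools, Lin28a exceeded Ago2 in 4, Ago2 exceeded Drosha in 5, and Drosha exceeded Tnrc6a in 6, by 0.37 ± 0.50 on the log2 scale. Over all pools the same held for Ago3 over Ago1, in 4 of 8 pools, though these were the agomir pools and Ago3 was below Ago1 in each control. The order of Ago3 and Ago1 depends on the length used for Ago3, as described below. Ago4 exceeded Ago3 in 6 of 8 pools by 0.37 ± 0.65 on the log2 scale, also within its spread.

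Ago2 dominated the Argonaute transcripts. It encodes the mammalian Argonaute best known for cutting target RNA. It was the highest of the 4 Argonautes in 8 of 8 pools, in FPKM and in counts alike. Blank controls 1 to 4 had 4.48, 4.75, 3.07 and 3.31 FPKM of Ago2, and agomir pools 1 to 4 had 3.68, 4.19, 2.58 and 2.74 FPKM. Even in control 3, where its lead was smallest, Ago2 stood 2.16-fold above the next Argonaute, and in control 1 it stood 4.11-fold above. The next Argonaute was Ago4 in 5 pools, Ago3 in agomir 2 and Ago1 in control 1, while Ago3 and Ago4 tied at 1.05 FPKM in agomir 1.

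As a share of the summed FPKM of the 4 Argonautes, Ago2 made up 62.2%, 57.1%, 51.7% and 55.4% in blank controls 1 to 4. In agomir pools 1 to 4 it made up 58.6%, 56.2%, 58.4% and 56.0%. The groups overlapped, with means of 56.6% ± 4.38 in controls against 57.3% ± 1.38 in agomir pools (SD, n = 4). All 4 agomir values lay inside the range of the controls. Counted without regard to length, the Ago2 share was 67.7% ± 3.54 in controls against 67.5% ± 0.903 in agomir pools (SD, n = 4).

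**Figure D2:**
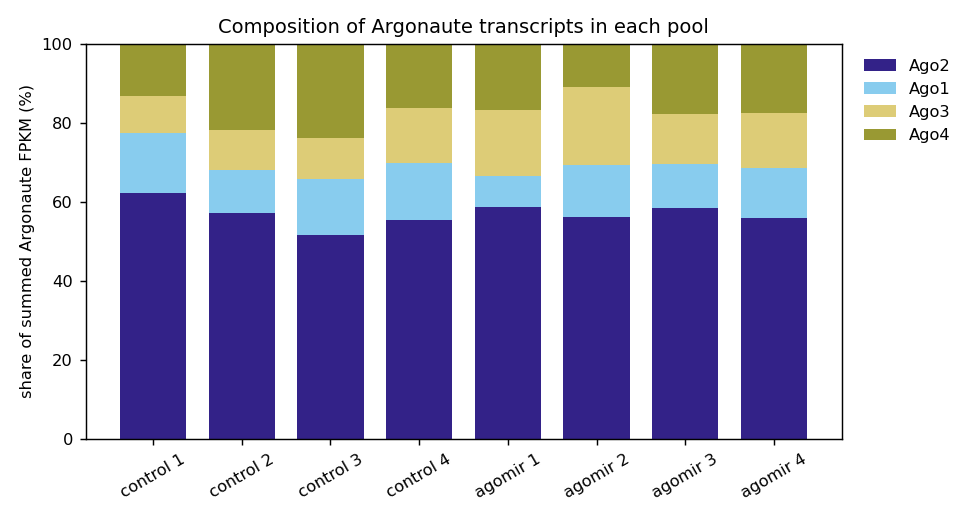
Share of each Argonaute in the summed Argonaute FPKM (percent, from 0 to 100) in each of the 8 pools, as stacked bars with Ago2 at the base. The Ago2 segment lies between 51.7% and 62.2% in every pool, and the Ago4 segment is smallest, at 10.9%, in agomir 2.

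Ago1 held 13.7% ± 1.80 of Argonaute FPKM in controls against 11.2% ± 2.30 with the agomir, and Ago4 held 18.8% ± 4.93 and 15.7% ± 3.26 (SD, n = 4). Both overlapped between groups. Ago3 held 10.96% ± 2.09 in controls against 15.8% ± 3.19 in agomir pools (SD, n = 4), and its groups overlapped too, with control 4 at 14.0% above agomir 3 at 12.7% and agomir 4 at 13.9%.

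The Ago3 share depended on the length used. The length implied by count, FPKM and library total was near 13800 bases for Ago2 in each library, but for Ago3 it ranged from 10059 bases in control 4 to 15645 bases in control 3. A setting with 1 fixed length for each gene was added after seeing these values. The length was that of the annotated transcript with the longest 3′ untranslated region, 15595 bases for Ago3. The Ago3 share was then 9.49%, 10.1%, 10.3% and 9.57% in blank controls 1 to 4. It was then 13.5%, 14.8%, 12.6% and 12% in agomir pools 1 to 4, so that the groups no longer overlapped. The same was true of the Ago3 share of Argonaute counts, which ran from 12.3% to 14.2% in controls and from 15.7% to 18.7% with the agomir. These shares were a description with no test, 1 of 4 shares read on 3 scales. The fixed-length and count shares rest on the same counts, so they are not separate readings.

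The comparison of agomir with blank control asks whether an added mimic goes with other levels of the genes that load and use microRNAs. For each gene, counts were scaled to a common library size with the TMM factors of edgeR (CPM). By edgeR's quasi-likelihood F test, 0 of 12366 genes had an adjusted p under 0.05 (0%), members included, and the smallest adjusted p of a member was 0.670. At an unadjusted p under 0.05 there was 1 of 9 members, Lin28a, where 6.38% of all genes tested had such a p and 2.64% had one with a higher value in the agomir pools. DESeq2 called 35 genes (0.244% of those given an adjusted p) and 0 members. The groups of 4 pools overlapped for each of the 9 members, while they did not overlap for 3.89% of all genes tested (2.47% lower and 1.42% higher with the agomir). The fitted value was higher with the agomir for 5 members and lower for 4, where 49.4% of all genes tested were lower, and the median log2 fold change of the 9 was 0.065 beside 0.0048 for all genes tested.

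**Figure D3:**
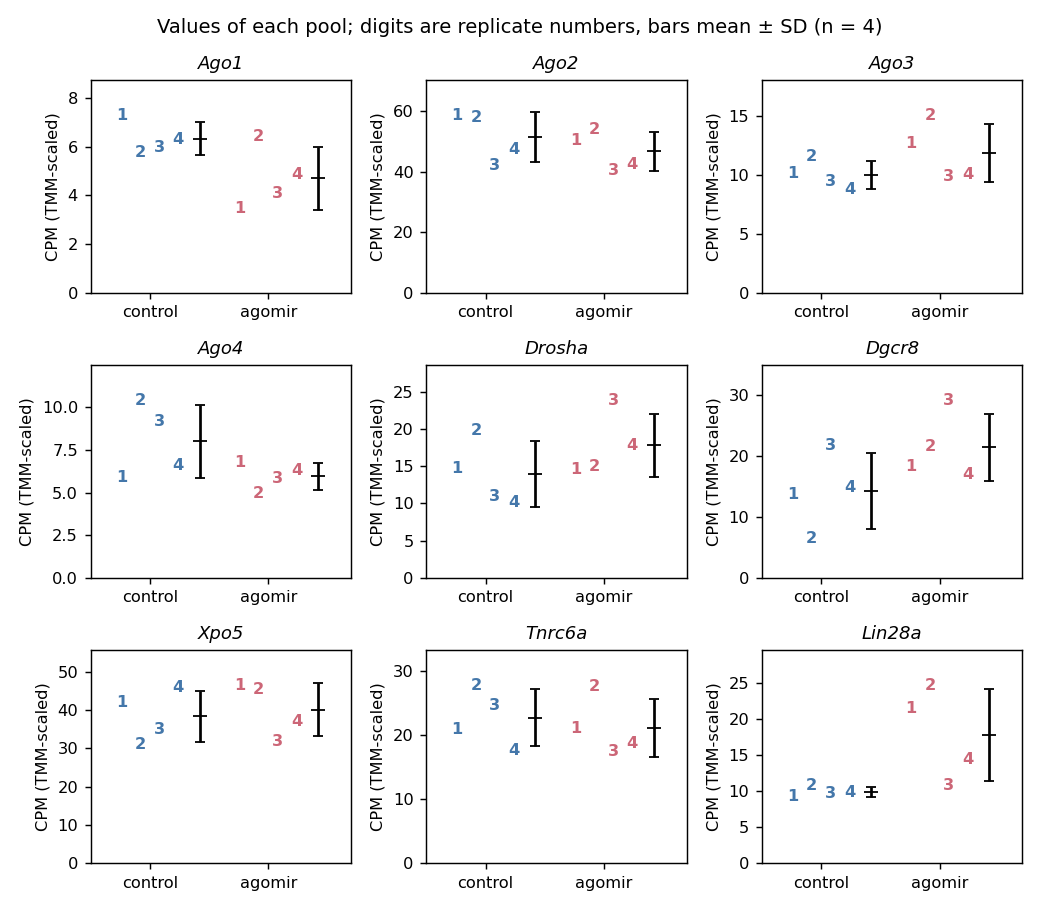
TMM-scaled CPM on a linear axis from 0 for each of the 9 genes, with digits giving the replicate number of each blank control (blue) and agomir pool (red) and bars giving mean ± SD (n = 4). Lin28a is tightly grouped in the controls, at 9.23 to 10.8 CPM, and spread from 10.7 to 24.7 CPM in the agomir pools.

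Among the Argonautes, Ago2 had 58.7, 57.8, 41.96 and 47.2 CPM in blank controls 1 to 4 and 50.3, 53.8, 40.5 and 42.3 CPM in agomir pools 1 to 4. In both groups, pools 1 and 2 were higher than pools 3 and 4, and the ranges overlapped. Its log2 fold change was -0.14 (SE 0.18, edgeR adjusted p = 0.913), a difference within the spread between pools, and it was -0.011 without control 2 and agomir 3 and between -0.21 and -0.066 leaving out 1 pool. The 4 Argonautes together had 75.7 ± 9.45 CPM in the blank pools against 69.3 ± 9.13 CPM in the agomir pools (SD, n = 4).

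Ago1, Ago3 and Ago4 lie next to each other on mouse chromosome 4, in the order Ago3, Ago1, Ago4 in the RefSeq annotation. Ago1 had 7.29, 5.76, 5.95 and 6.31 CPM in blank controls 1 to 4 and 3.46, 6.43, 4.06 and 4.84 CPM in agomir pools 1 to 4. Agomir 2 was inside the control range and the other 3 agomir pools were below it (log2 fold change -0.43 with SE 0.27 and an edgeR adjusted p = 0.827). Without agomir 2 the value was -0.61, with an edgeR unadjusted p of 0.049 and an adjusted p of 0.818. In the fit without agomir 2, 771 of 12650 genes had an unadjusted p under 0.05. Leaving out 1 pool at a time gave -0.61 to -0.30 for Ago1, the smallest drop without agomir 1 (edgeR unadjusted p = 0.294).

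Ago4 had 5.89, 10.4, 9.17 and 6.55 CPM in blank controls 1 to 4, and 6.78, 4.93, 5.81 and 6.29 CPM in agomir pools 1 to 4. Controls 2 and 3 stood above all agomir pools and controls 1 and 4 among them (log2 fold change -0.43 with SE 0.26 and an edgeR adjusted p = 0.819). The Ago4 value was -0.28 without control 2 and -0.27 without control 2 and agomir 3. Ago3, the neighbour on the other side of Ago1, had 10.1, 11.6, 9.44 and 8.74 CPM in blank controls 1 to 4 and 12.6, 15.03, 9.87 and 9.97 CPM in agomir pools 1 to 4. Agomir pools 1 and 2 were the highest of all 8 and agomir pools 3 and 4 lay among the controls (log2 fold change 0.25 with SE 0.22 and an edgeR adjusted p = 0.863). Leaving out agomir 2 gave 0.12 for Ago3, and leaving out control 2 with agomir 3 gave 0.42. The Ago3 to Ago1 ratio of FPKM was 0.624, 0.913, 0.726 and 0.977 in blank controls 1 to 4. It was 2.1, 1.51, 1.12 and 1.115 in agomir pools 1 to 4. All agomir pools lay above all controls in this ratio, which was picked out after the values were seen and carries no test. It also rests on the implied Ago3 length, which ranged from 10059 to 15645 bases. With 1 fixed length for each gene, the Ago3 share stayed above the Ago1 share in agomir pools 1, 2 and 3. In agomir 4 the shares were 12% for Ago3 and 12.5% for Ago1, near those of control 2, 10.1% and 10.9%. Control 2 had the highest ratio of the controls on this scale. The ratio in agomir 4 was slightly above it, so the groups still did not overlap, by a narrow margin. Counts of the Argonautes can share reads where their coding sequences are alike, and how such reads were assigned is not given in the sources used here.

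Drosha, the cutting subunit of the Microprocessor, had 14.7, 19.8, 10.98 and 10.1 CPM in blank controls 1 to 4 and 14.6, 15.03, 23.9 and 17.8 CPM in agomir pools 1 to 4. Control 2 and agomir 3 were the 2 highest pools, and the groups overlapped widely (log2 fold change 0.36 with SE 0.26 and an edgeR adjusted p = 0.836). Without control 2 the value was 0.58 (unadjusted p = 0.039, edgeR adjusted p = 0.786), without agomir 3 it was 0.19, and without both it was 0.41.

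Its partner Dgcr8 varied most of the 9 genes, by 4.47-fold between the highest and the lowest pool. Blank controls 1 to 4 had 13.7, 6.50, 21.6 and 14.8 CPM, and agomir pools 1 to 4 had 18.2, 21.6, 29.1 and 16.8 CPM. Control 2 was far below the others and agomir 3 above them, while control 3 stood level with agomir 2 (log2 fold change 0.59 with SE 0.32 and an edgeR adjusted p = 0.807). Without control 2 the value was 0.36, and without both control 2 and agomir 3 it was 0.17. Without control 3 it was 0.88 (unadjusted p = 0.017, edgeR adjusted p = 0.524). In the RefSeq annotation Dgcr8 overlaps Trmt2a, and with no strand setting stated, reads from the shared stretch could belong to either gene.

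The Microprocessor is known to cut hairpins in the Dgcr8 message itself, and the balance of the 2 subunits was therefore read in each pool. The Dgcr8 to Drosha ratio of FPKM was 0.977, 0.343, 2.07 and 1.53 in blank controls 1 to 4 and 1.31, 1.497, 1.27 and 0.992 in agomir pools 1 to 4. Control 2 had the most Drosha of the controls and the least Dgcr8, and control 3 was high in Dgcr8 and low in Drosha. The mean ratio was 1.23 ± 0.742 in controls against 1.27 ± 0.209 in agomir pools (SD, n = 4), and the agomir pools lay inside the range of the controls.

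Xpo5, the export receptor gene, had 41.96, 30.98, 34.8 and 45.9 CPM in blank controls 1 to 4 and 46.5, 45.4, 31.8 and 36.98 CPM in agomir pools 1 to 4. High and low pools occurred in both groups (log2 fold change 0.065 with SE 0.19 and an edgeR adjusted p = 0.965), and the sign of the difference turned under other scalings. Tnrc6a, whose protein links Argonaute to the deadenylases, had 20.8, 27.7, 24.6 and 17.5 CPM in blank controls 1 to 4 and 20.9, 27.5, 17.3 and 18.6 CPM in agomir pools 1 to 4. The 2 ranges nearly coincided (log2 fold change -0.10 with SE 0.22 and an edgeR adjusted p = 0.952), and this sign also turned under other settings. The Ago2 to Tnrc6a ratio of FPKM was 1.38 ± 0.312 in controls against 1.33 ± 0.118 in agomir pools (SD, n = 4).

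Lin28a had the largest log2 fold change of the 9 genes. Its protein binds let-7 precursors, blocks their dicing and marks pluripotent cells. Blank controls 1 to 4 had 9.23, 10.8, 9.68 and 9.78 CPM, from 119, 233, 208 and 197 counts. Agomir pools 1 to 4 had 21.5, 24.7, 10.7 and 14.4 CPM, from 428, 511, 177 and 298 counts. The controls lay close together, agomir pools 1 and 2 had about double their level, agomir 4 was between, and agomir 3 lay just below the highest control. The log2 fold change was 0.85 (SE 0.26), with an unadjusted p of 0.0072 and an edgeR adjusted p of 0.670, and 3 of 4 agomir pools were above all controls. Lin28a ranked 131 by p, so that 1.05% of all genes tested had a smaller p, and 6.35% had a larger absolute log2 fold change.

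**Figure D4:**
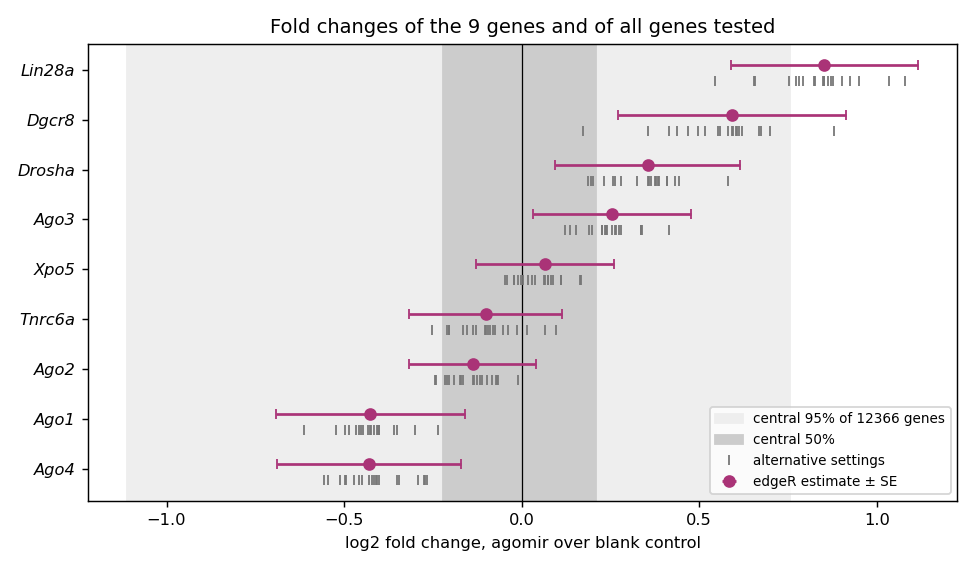
Log2 fold change of agomir over blank control for each of the 9 genes, as the edgeR estimate ± SE (circles, n = 4 pools a group) with grey ticks for the alternative settings, over bands that hold the central 50% and 95% of all genes tested. Lin28a, at 0.85, is the 1 gene outside the wide band, which runs from -1.11 to 0.755, and Xpo5 and Tnrc6a have ticks on both sides of 0.

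The Lin28a estimate was 1.04 without agomir 3, 0.66 without agomir 2 and 1.08 without control 2 and agomir 3 together, and over 20 alternative settings it lay between 0.54 and 1.08. Its adjusted p was above 0.05 in all of them, from 0.209 in DESeq2 to 0.999. Agomir pools 1 and 2 were the highest agomir pools in Lin28a, Ago2, Ago3, Xpo5 and Tnrc6a. They had 5.08% and 4.87% of counts from mitochondrial genes, and agomir pools 3 and 4 had 9.86% and 9.47%. The controls lay between 7% and 8.25%. The part of this split in the Lin28a values was not tested.

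Markers of cell types were read beside these values. Markers of the trophectoderm, inner cell mass and primitive endoderm, the blastocyst's cell types, were all present. All 9 trophectoderm markers had a higher fitted value, as had 50.6% of all genes tested. Of the 9, 4 had an unadjusted p under 0.05, where 2.64% of all genes tested had such a p and a higher value. The 9 summed to 2780 to 4360 CPM in controls and 3590 to 8480 CPM in agomir pools, the last being agomir 3. Of 6 inner cell mass markers with a row, 1 had a higher and 5 a lower fitted value (median log2 fold change -0.27). They summed to 181 to 294 CPM in controls and 149 to 251 CPM in agomir pools. Primitive endoderm markers (6) summed to 158 to 224 CPM and 157 to 227 CPM. The lowest Lin28a of the agomir group was in the pool with the most trophectoderm signal. Among controls it was the reverse, with the highest Lin28a (10.8 CPM) in control 2, the pool with the most trophectoderm signal (4360 CPM). Cumulus and granulosa markers, of the ovarian cells that surround the oocyte, summed over 12 genes to 51.2 to 143 CPM in controls and 7.03 to 38.6 CPM in agomir pools, with no overlap. Of these 12 genes 3 were tested, all lower, and 2 had an unadjusted p under 0.05, where 3.74% of all genes tested had such a p and a lower value. The groups did not overlap for 2 of the 3, beside 3.89% of all genes tested. Most of the summed level was Cyp11a1 and Hsd3b1, while Cyp19a1 was at 0 in all pools and Fshr reached at most 0.464 CPM. Oocyte markers, 12 genes, summed to 126 to 242 CPM and 147 to 214 CPM, nearly all from Ooep, with H1f8 at 0 in all pools. Blood markers, 5 genes, summed to 19.3 to 29.5 CPM and 13.3 to 21.2 CPM, mostly from Cd68, with Hbb-bs at 0. The part of any of these lists in the members' values was not tested.

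The other genes of the pathway were taken from lists, with members left out of the count. Of 86 tested genes, 48 had a higher and 38 a lower fitted value with the agomir, and the median log2 fold change was 0.033. An unadjusted p under 0.05 was found for 3 (3.49%, beside 6.38% of all genes), 2 higher and 1 lower, and 0 passed an FDR of 0.05 in edgeR. The groups did not overlap for 3 genes (3.49%, beside 3.89% of all genes). The count of 3 became 7 of 86 without control 3, where 1037 of all 12546 genes tested had such a p. It was 7 of 87 without agomir 3, beside 861 of 12736 genes, and 6 of 87 without agomir 2, beside 771 of 12650. Without agomir 1 it was 5 of 87, beside 759 of 12643. With limma-voom and quality weights it was 8 of 86, beside 1035 of 12366.

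**Figure D5:**
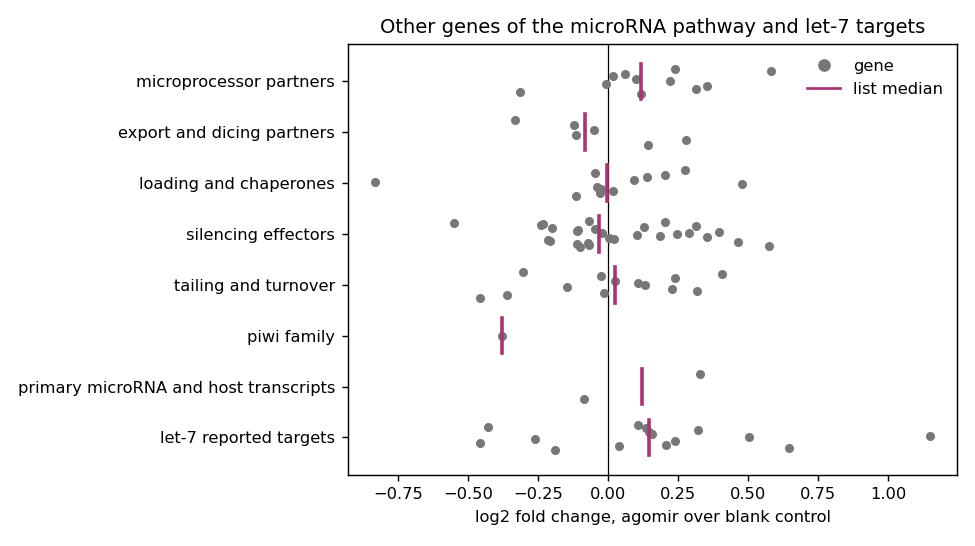
Log2 fold change of agomir over blank control for each tested gene (grey circles) of 8 lists, with the median of each list as a red line; the height of a circle within its row has no meaning. The medians lie between -0.38, for the single tested Piwi gene, and 0.15, for the let-7 targets, and Mycn, a let-7 target, is farthest right at 1.148.

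Partners of the Microprocessor had 9 of 11 tested genes higher and 2 lower, where 50.6% of all genes tested were higher. Their median log2 fold change was 0.12, and 0 had an unadjusted p under 0.05. They include Ddx17, an RNA helicase, with 98.9 ± 18.3 CPM in the blank pools against 79.5 ± 8.57 CPM in the agomir pools (SD, n = 4). Ncbp1, a subunit of the nuclear cap-binding complex, had 61.3 ± 3.60 and 78.2 ± 28.8 CPM (SD, n = 4). Agomir 3 had 121 CPM of Ncbp1, and the other agomir pools had 59.1 to 67.1 CPM. Erh, a small Dgcr8-binding protein, was the most abundant of these partners per length, at 935 FPKM on average. Partners of export and dicing, 6 genes, had 2 higher and 4 lower, and among them Ran, the GTPase that drives export, had 854 ± 172 and 943 ± 74.0 CPM.

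Loading and chaperone genes split evenly, 6 higher and 6 lower, with a median of -0.0035. The heat shock genes Hsp90aa1 (1913 FPKM) and Hspa8 (1020 FPKM), whose proteins help open Argonaute for a duplex, were the most abundant of the whole pathway per length. For Hsp90aa1 the fitted log2 fold change was -0.11 (SE 0.21), and for Hspa8 it was 0.019 (SE 0.28). The Hspa8 value averages unlike pools, with 3706 CPM in agomir 3 and 1625 to 1777 CPM in the other agomir pools. The controls had 2166 ± 404 CPM of Hspa8 (SD, n = 4). Fkbp5, a co-chaperone of Hsp90, was the 1 gene of this list at an unadjusted p under 0.05. It had 14.5 ± 3.74 CPM in the blank pools against 8.15 ± 1.60 CPM in the agomir pools (SD, n = 4; log2 fold change -0.83 with SE 0.25 and an edgeR adjusted p = 0.670), and its groups did not overlap.

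Silencing effectors, the paralogs of Tnrc6a with the deadenylases and decapping factors, had 13 of 28 genes higher and 15 lower (median -0.034), and 0 at an unadjusted p under 0.05. The smallest p among them was that of Ddx6, a helicase of processing bodies, with 35.2 ± 3.04 and 46.3 ± 10.8 CPM (log2 fold change 0.39 with SE 0.19 and an edgeR adjusted p = 0.793). Tnrc6c, a paralog of Tnrc6a, had 5.43 ± 0.614 and 8.07 ± 3.01 CPM (SD, n = 4). Tailing and turnover genes had 7 of 13 higher and 6 lower. Tut4, a terminal uridylyltransferase that Lin28a recruits to let-7 precursors, had 17.6 ± 1.86 CPM in the blank pools against 13.7 ± 1.96 CPM in the agomir pools, with groups that did not overlap (log2 fold change -0.36 with SE 0.19 and an edgeR adjusted p = 0.807). Lin28b, the paralog of Lin28a, had 3.37 ± 1.23 and 2.44 ± 1.11 CPM (log2 fold change -0.46, SE 0.42), the opposite sign to Lin28a within its spread.

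Of the Piwi family, which carries germline small RNAs, 1 of 3 genes passed the filter, Piwil2 with 15.1 ± 3.76 and 11.6 ± 1.009 CPM (SD, n = 4). Host transcripts of microRNAs had a row for 2 of 14 names. Vmp1, next to the miR-21 gene, had 331 ± 81.8 CPM in the blank pools against 312 ± 52.7 CPM in the agomir pools (log2 fold change -0.085, SE 0.22). AU018091 had 499 ± 166 and 627 ± 237 CPM (SD, n = 4). Small RNAs were not measured, so the levels of miR-21-5p and let-7 are not analysed here.

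Genes reported elsewhere as let-7 targets were read because Lin28a limits let-7. Of 15 tested, 11 had a higher and 4 a lower value with the agomir, where 50.6% of all genes tested had a higher one. The median log2 fold change was 0.15, beside 0.0048 for all genes. An unadjusted p under 0.05 was found for 2 of them, both higher. Of all genes tested, 2.64% had such a p and a higher value. Mycn, a Myc-family transcription factor gene, had 31.7 ± 15.9 and 70.4 ± 17.4 CPM (log2 fold change 1.148 with SE 0.32 and an edgeR adjusted p = 0.656). Igf2bp1, an RNA-binding protein gene, had 56.7 ± 3.43 and 88.6 ± 29.7 CPM (log2 fold change 0.64 with SE 0.21 and an edgeR adjusted p = 0.678), and its groups did not overlap. Agomir 2 had 133 CPM of Igf2bp1, and the other agomir pools had 71.3 to 76.5 CPM. Hmga2, a chromatin gene often used as a let-7 readout, had 133 ± 17.4 and 117 ± 26.2 CPM (log2 fold change -0.19, SE 0.20).

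The genes whose pattern over the 8 pools was most like that of Ago2 were found by Pearson's correlation of log2 CPM among 8688 genes with at least 5 CPM. They were Cip2a (r = 0.957), Agps (0.944), Gtf3c2 (0.940), Nploc4 (0.937) and Paxbp1 (0.931), over n = 8 pools, where all genes of a pool share its depth and scaling factor. These genes were the highest of many, and none of them is in the pathway lists. Among the members themselves the most alike pair was Ago3 and Lin28a (r = 0.861), both highest in agomir pools 1 and 2, and the most opposed was Ago2 and Dgcr8 (r = -0.673).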

How the data were processed

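Per the file headers, the deposited table gives an estimated count and an FPKM value for each gene and library. The submitters' processing notes name fastp 0.18.0, HISAT2 2.1.0, StringTie 1.3.1, RSEM, DESeq2 1.36.0 and GRCm39, while no source used here states each tool's role, the annotation or strand handling. Of 176104 deposited count values, 1212 were not whole, and all were treated as estimated (expected) counts and rounded. Library totals ran from 12246102 to 23147449 counts. Genes were filtered with filterByExpr (minimum count 10, total 15). The 4 agomir and 4 control libraries entered a robust quasi-likelihood F test in edgeR 4.0.16 (R 4.3.3, TMM scaling, no covariate), with Benjamini-Hochberg adjustment over all 12366 genes, threshold 0.05, tested on simulated data. DESeq2 1.42.0 and limma 3.58.1 were alternatives, the latter on log2(FPKM + 1) and log2(FPKM + 0.1) of the deposited FPKM. The SE is the size of the log2 fold change over the square root of F. Levels are mean ± SD.

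All 9 members are named; from each list, genes could be named that were among the 4 of smallest p or the 2 of highest mean FPKM. The seeds were taken from mature microRNAs of RefSeq, and matches were searched in 3′ untranslated regions of GENCODE M21, both of GRCm38. The alternatives stand in the closing section. The members and lists were chosen with earlier results of these data known.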

Additional observations from a re-analysis of the deposited data

Results flagged for a closer look

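In 132 sets of 4 libraries (the members, the named genes, shares, ratios and marker sums in each group), 12 held a value far from the other 3. Chance gives about 1 in 20 for independent sets. Many of these sets share pools or rest on the same counts, so the 12 cannot be weighed against that rate. The Ago4 share of Argonaute FPKM was 10.9% in agomir 2 and 16.7% to 17.6% in the other agomir pools. The oocyte markers summed to 147 CPM in agomir 2 and 203 to 214 CPM in the others. Agomir 2 was also high in Igf2bp1 (133 CPM, others 71.3 to 76.5 CPM) and in Ddx6 (62.4 CPM, others 38.9 to 42.5 CPM).

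Agomir 3 was the far value in 6 sets. Its trophectoderm markers summed to 8480 CPM, against 3590 to 4040 CPM in the other agomir pools. Fkbp4, an Hsp90 co-chaperone gene, had 504 CPM there (others 151 to 166 CPM), Hspa8 had 3706 CPM (others 1625 to 1777 CPM) and Tsnax, which encodes the partner of translin, had 65.8 CPM (others 30.2 to 33.7 CPM). Ncbp1 had 121 CPM (others 59.1 to 67.1 CPM) and Safb had 38.3 CPM (others 10.4 to 13.8 CPM). Hnrnpa1 was low in agomir 1, at 488 CPM (others 648 to 661 CPM). Lin28b was low in control 3, at 1.54 CPM (others 3.95 to 4.03 CPM).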

How the results depend on the processing

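Of 180 member fold changes recomputed (20 alternative settings for each of 9 genes), 171 kept their direction and stayed above an adjusted p of 0.05, and 9 turned sign, all of them in Xpo5 or Tnrc6a. Xpo5 was at -0.021 with library totals alone, -0.00082 with upper-quartile scaling, -0.040 and -0.048 on log2(FPKM + 1) and log2(FPKM + 0.1), -0.023 without control 2 and -0.0096 without agomir 1 (-0.023 to 0.17 leaving out 1 library). Tnrc6a was at 0.066 with limma-voom and quality weights, 0.014 without control 2 and 0.096 without both control 2 and agomir 3 (-0.25 to 0.014 leaving out 1 library); the cause was not tested. Members past the threshold numbered 0 under each setting. Over all genes DESeq2 called 35, and leaving out 1 library gave 0 to 1 genes, the 1 without control 4. The mean Ago2 share was 56.9% by FPKM, 67.6% by TMM-scaled CPM, which does not divide by length, and 56.2% to 57.7% leaving out 1 library. With library totals alone the median of all genes moved to -0.11 and 82.1% of genes at an unadjusted p under 0.05 were lower, against 58.7% with TMM. Replicate numbers are shared between groups, but same-numbered pools did not deviate together (r = -0.094, -0.044, -0.15 and 0.17 for numbers 1 to 4), so they were not taken as pairs. With the replicate block 0 genes were called, as without it. In that fit 706 of 12366 genes had an unadjusted p under 0.05, with 2 members among them, Lin28a and Dgcr8. On log2(FPKM + 1) and log2(FPKM + 0.1), with limma, 0 members had one, and the unadjusted p of Lin28a was 0.069 and 0.067. At 67 to 511 counts a library, differences in Ago1, Ago3, Ago4, Drosha, Dgcr8 and Lin28a were measured with standard errors of 0.22 to 0.32 on the log2 scale.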
